A study of Mus musculus with 63 samples.

Results

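Pdgfra, Gata6, Gata4, Sox17, Sox7, Foxa2 and Hnf4a are regulators known from primitive endoderm, the first extraembryonic endoderm of the mouse embryo. They were chosen by name, with earlier results of these data known, and they make up 7 of the 47517 gene symbols in each of 22 RNA-seq count tables. The study concerned the zinc finger factor YY1 in mouse pluripotent cells of strain C57BL/6, and its other 41 samples are not analysed here. Embryonic stem (ES) cells were kept in 2i medium and extended pluripotent stem (EPS) cells in LCDM medium, each on inactivated embryonic fibroblasts or on Matrigel, and the labels do not give the surface for each library. The 6 undifferentiated groups were ES and EPS cells with no construct named, called plain below, with 3 libraries each, and 4 lines with 2 libraries each. These lines were EPS cells with a control short hairpin RNA (EPS shCtrl) or one that depletes Yy1 (EPS shYy1), and ES cells labelled oeCtrl (control) and oeYy1 (Yy1 overexpression). The same 4 lines after 6 days in F4H medium, whose composition is not given in the sources used here, gave another 4 groups of 2 libraries. For the day 6 controls the title gives shCtrl or oeCtrl while the genotype field reads only control, and the titles were followed. Whether a line was a clone or a pool, and whether replicates were separate cultures, is not given in the sources used here, so p-values measure the spread between these libraries only.

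In the blastocyst, cells of the inner cell mass become epiblast or primitive endoderm. FGF4 made by future epiblast acts through FGF receptors and ERK, and the responding cells keep the zinc finger factor GATA6, which opposes the epiblast factor NANOG. The receptor PDGFRA, the GATA factor GATA4 and the HMG-box factors SOX17 and SOX7 follow, and FOXA2 and HNF4A mark the visceral endoderm that later covers the embryo. None of the 7 is restricted to this lineage. GATA4 and GATA6 also act in heart and definitive endoderm, SOX17 and FOXA2 in definitive endoderm, SOX7 and SOX17 in endothelium, FOXA2 in the floor plate, HNF4A in liver and PDGFRA in mesoderm and fibroblasts.

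Levels are given as CPM, the count of a gene per 1000000 gene counts of the library, and the gene counts of a library came to 13672061 to 20782348. A library with 0 counts of a gene can hold up to 0.144 to 0.219 CPM of it, taking 3 counts as the floor, and this covers counting error only. A gene was called where edgeR's quasi-likelihood F-test gave a Benjamini-Hochberg adjusted p under 0.05 over all genes tested, and fold changes carry their standard error. Yy1 itself was at 70.5 and 70.5 CPM in EPS shYy1 against 134 and 134 in EPS shCtrl, and it was 1.99-fold lower (log2 fold change -0.99 ± 0.11, adjusted p = 4.43e-06). In ES oeYy1 it was 7.66-fold higher (log2 fold change 2.94 ± 0.11, adjusted p = 4.91e-11). At day 6 it was still 2.60-fold higher (log2 fold change 1.38 ± 0.05, adjusted p = 9.22e-33) in ES oeYy1, but the libraries labelled EPS shYy1 held 114 and 109.6 CPM against 129 and 123 in EPS shCtrl (log2 fold change -0.03 ± 0.05, adjusted p = 0.567), and no direction of Yy1 can be read into the day 6 hairpin comparison. The lines also stood apart in the summed level of 331 Y-linked symbols, which was 3.06 to 3.40 CPM in EPS shCtrl, 155 to 158 in EPS shYy1, 14.4 to 25.8 in plain EPS, 64.1 to 77.2 in ES, 111 to 131 in ES oeCtrl and 26.9 to 27.7 in ES oeYy1. At day 6 it was 16.45 to 17.37 CPM in EPS shCtrl, 169.00 to 175.78 in EPS shYy1, 101.19 to 104.56 in ES oeCtrl and 65.97 to 71.76 in ES oeYy1. The sum of 16 fibroblast markers was 2530.2 to 4568 CPM in ES, with the highest value in replicate 3, 298 to 908 in EPS, again highest in replicate 3, and 18.2 to 84.7 in the other undifferentiated groups. The part of these differences in the results was not tested. Below, with the hairpin and with oeYy1 name a line set against its control. At day 6 the hairpin comparison is a difference between 2 lines whose Yy1 was not called different. A value given without a library shows how far a result rests on that library, and it does not remove these differences between groups. In bulk RNA, fewer cells expressing a gene and less of its RNA in each cell cannot be told apart.

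Of visceral endoderm, a derivative of primitive endoderm, some secreted products were near 0. Afp, Ttr, Apoa1 and Apoa4 reached at most 1.24 CPM, the highest being Ttr in ES, and the 14 visceral endoderm genes together made up 5.64 to 29.8 CPM. That sum was highest in day 6 EPS shCtrl, at 28.6 to 29.8 CPM against 7.73 to 12.4 in the other day 6 groups. From undifferentiated to day 6 EPS shCtrl, Cer1, Spink1 (5.31 ± 0.56 on the log2 scale) and Foxa1 (2.22 ± 0.33) were called higher. Apoa2 (-2.76 ± 0.37), Soat2 (-3.82 ± 0.66) and Apob (-2.60 ± 0.63) were called lower there. The uptake receptor Lrp2 was at 628 to 655 CPM in the day 6 ES oeCtrl libraries and 119 to 128 in day 6 EPS shCtrl, the opposite order to most of the 7 regulators. Most markers of mesendoderm rose at day 6, with 7 or 8 of 8 genes called higher in each line, beside 35.7% to 37.9% of all genes. Gsc was called lower in EPS shYy1 (-0.96 ± 0.21 on the log2 scale) and ES oeCtrl (-1.29 ± 0.21), and Cer1 was not called in ES oeYy1. They summed to 11.9 to 36.2 CPM in undifferentiated libraries and to 241 to 746 at day 6, with the T-box factor T at 245 to 246 CPM in day 6 EPS shCtrl and Lhx1 at 125 to 142. In the day 6 fibroblast sum the contractile genes Tagln and Acta2 reached 1492 and 851 CPM, while the fibroblast genes Lum, Dcn and Prrx1 reached 2.21, 4.72 and 3.46. That sum reached 3294 CPM in day 6 ES oeCtrl, so these genes do not account for all of it. Levels of the other genes of the list are not given here. The 7 genes are described by name below and no cell type is assigned.

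Pdgfra encodes the alpha receptor for platelet-derived growth factors (chromosome 5, 75151322 to 75198206, GRCm38.p6). Undifferentiated Pdgfra levels were 5.34, 5.18 and 8.23 CPM in ES, 2.37, 2.84 and 7.69 in EPS, 10.7 and 9.29 in EPS shCtrl, 3.66 and 3.07 in EPS shYy1, 0.550 and 0.784 in ES oeCtrl and 0.916 and 0.845 in ES oeYy1. At day 6 they were 64.9 and 70.0 CPM in EPS shCtrl, 15.3 and 12.9 in EPS shYy1, 7.58 and 8.19 in ES oeCtrl and 15.3 and 16.6 in ES oeYy1. The day 6 EPS shCtrl libraries stood far above all others, and the next 2 groups, day 6 ES oeYy1 and day 6 EPS shYy1, overlapped. Day 6 EPS shYy1 stayed above every undifferentiated library, day 6 ES oeCtrl overlapped ES, and ES, EPS and EPS shYy1 overlapped in turn. The ES lines labelled oeCtrl and oeYy1 were lowest, all under 1 CPM. The annotated span of Pdgfra also holds the miRNA gene Mir7025, at no more than 0.105 CPM.

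Gata6 encodes the earliest GATA factor of the lineage (chromosome 18, 11052510 to 11085636), and its annotated span overlaps the antisense gene Gata6os, which is not analysed here. Undifferentiated Gata6 levels were 1.38, 1.83 and 2.68 CPM in ES, 0.646, 0.818 and 2.29 in EPS, 25.6 and 13.3 in EPS shCtrl, 5.56 and 3.97 in EPS shYy1, 0.550 and 0.719 in ES oeCtrl and 0.196 and 0.141 in ES oeYy1. The day 6 levels were 16.3 and 18.2 CPM in EPS shCtrl, 12.7 and 12.2 in EPS shYy1, 6.17 and 6.84 in ES oeCtrl and 14.7 and 13.8 in ES oeYy1. EPS shCtrl was the highest undifferentiated group, and it overlapped its own day 6 libraries. Below these the day 6 groups followed without overlap in the order ES oeYy1, EPS shYy1 and ES oeCtrl. ES, EPS and ES oeCtrl overlapped in turn, and ES oeYy1 was lowest.

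Gata4 encodes a GATA factor that acts beside and after GATA6 (chromosome 14, 63198914 to 63271712). Undifferentiated Gata4 levels were 4.20, 4.83 and 4.18 CPM in ES, 2.64, 1.54 and 3.17 in EPS, 14.6 and 14.2 in EPS shCtrl, 9.36 and 8.13 in EPS shYy1, 11.3 and 12.5 in ES oeCtrl and 5.30 and 5.57 in ES oeYy1. Levels at day 6 were 50.7 and 53.4 CPM in EPS shCtrl, 18.95 and 19.11 in EPS shYy1, 10.9 and 9.67 in ES oeCtrl and 24.9 and 29.0 in ES oeYy1. All 10 groups were separate in their range, from day 6 EPS shCtrl at the top to EPS at the bottom. The undifferentiated control lines EPS shCtrl and ES oeCtrl were near each other, and both stood above the plain cells they are labelled with. Reading the levels with TMM-scaled totals lowered the mean of day 6 EPS shCtrl from 52.1 to 47.4 CPM for Gata4 and from 67.4 to 61.4 CPM for Pdgfra.

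Sox17 encodes an HMG-box factor of primitive and definitive endoderm (chromosome 1, 4490928 to 4497426). Undifferentiated Sox17 levels were 0.240, 0.707 and 0.239 CPM in ES, 0.161, 0.770 and 0.469 in EPS, 4.98 and 4.18 in EPS shCtrl, 2.63 and 2.71 in EPS shYy1, 0.963 and 0.523 in ES oeCtrl and 1.83 and 1.34 in ES oeYy1. At day 6 they were 13.8 and 10.1 CPM in EPS shCtrl, 3.52 and 4.25 in EPS shYy1, 2.26 and 2.42 in ES oeCtrl and 1.39 and 0.974 in ES oeYy1. Day 6 EPS shCtrl was highest, EPS shCtrl overlapped day 6 EPS shYy1, and EPS shYy1 and day 6 ES oeCtrl followed without overlap. ES, EPS and ES oeCtrl were all under 1 CPM and overlapped in turn. Sox7, its relative in the same SOX subgroup (chromosome 14, 63943706 to 63950732), was low throughout. Undifferentiated Sox7 levels were 0.600, 0.236 and 0.596 CPM in ES, 1.35, 1.40 and 2.41 in EPS, 4.09 and 2.59 in EPS shCtrl, 1.97 and 1.69 in EPS shYy1, 0.688 and 0.784 in ES oeCtrl and 1.37 and 1.55 in ES oeYy1. Day 6 levels were 0.314 and 0.151 CPM in EPS shCtrl, 0.866 and 1.19 in EPS shYy1, 1.66 and 1.83 in ES oeCtrl and 0.488 and 0.974 in ES oeYy1. Its order was different from that of Pdgfra: undifferentiated EPS shCtrl was the highest group and day 6 EPS shCtrl the lowest in its mean, overlapping ES. Sox7 and Gata4 lie on the same chromosome, 672 kb apart.

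Foxa2 encodes a forkhead pioneer factor (chromosome 2, 148042877 to 148046969). In the 14 undifferentiated libraries it ranged from 0 to 0.529 CPM, with all 6 groups overlapping their neighbours, and it did not pass the count filter of the undifferentiated model. At day 6 the levels were 8.53 and 7.24 CPM in EPS shCtrl, 2.75 and 3.37 in EPS shYy1, 3.01 and 2.12 in ES oeCtrl and 0.975 and 0.765 in ES oeYy1. Every day 6 library lay above every undifferentiated one, day 6 EPS shCtrl was the highest, EPS shYy1 and ES oeCtrl overlapped, and day 6 ES oeYy1 was the lowest of the day 6 groups. Hnf4a encodes a nuclear receptor of visceral endoderm and liver (chromosome 2, 163506811 to 163572907). It ranged from 0 to 1.05 CPM over all 22 libraries, and it did not pass the filter at day 6. Its counts summed over the libraries of a group were 8 in ES, 1 in EPS, 23 in EPS shCtrl, 22 in EPS shYy1, 10 in ES oeCtrl and 22 in ES oeYy1. At day 6 they were 21 in EPS shCtrl, 11 in EPS shYy1, 1 in ES oeCtrl and 0 in ES oeYy1, so Hnf4a was close to the floor in plain EPS and in the day 6 ES lines. The span of Hnf4a overlaps the antisense gene Hnf4aos, which was at 0 CPM in every library, and whether counting used strand is not given in the sources used here.

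Windows of 250 bases before an annotated start were at hand for 3 of the 7 genes in RefSeq (GRCm38.p6), and those parts that lie outside the annotated span of the gene are shown for Foxa2, which every day 6 library held above every undifferentiated one, and Hnf4a, which did not rise. The Foxa2 window is chr2:148046970-148047219 on the minus strand and the Hnf4a window chr2:163506607-163506810 on the plus strand, both 5′ to 3′. Capitals mark matches, on either strand, to the YY1 core GCCAT, the GATA motif AGATAA, the SOX core ACAAT and the forkhead motif TGTTTAC.
Foxa2: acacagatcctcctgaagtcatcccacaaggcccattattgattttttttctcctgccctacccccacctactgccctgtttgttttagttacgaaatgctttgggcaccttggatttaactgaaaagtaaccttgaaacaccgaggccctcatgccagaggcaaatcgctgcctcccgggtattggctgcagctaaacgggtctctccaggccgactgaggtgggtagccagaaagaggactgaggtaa
Hnf4a: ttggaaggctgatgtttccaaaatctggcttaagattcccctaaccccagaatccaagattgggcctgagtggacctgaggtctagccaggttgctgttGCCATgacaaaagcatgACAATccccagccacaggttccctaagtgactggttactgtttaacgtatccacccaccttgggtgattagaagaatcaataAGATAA
The Foxa2 stretch held none of these letters, and the Hnf4a stretch held the YY1 core, the SOX core and the GATA motif once each, without overlap. The Hnf4a stretch is 204 bases long and the Foxa2 stretch 250. The table has 3 Foxa2 windows, of which the first is shown because the others lie inside the annotated span, and the third holds the GATA motif once. Of 32851 windows of 250 bases in the table, 32.9% held the YY1 core, 9.99% the GATA motif, 27.7% the SOX core and 3.17% the forkhead motif, and a match describes letters and not a binding site.

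**Figure D1:**
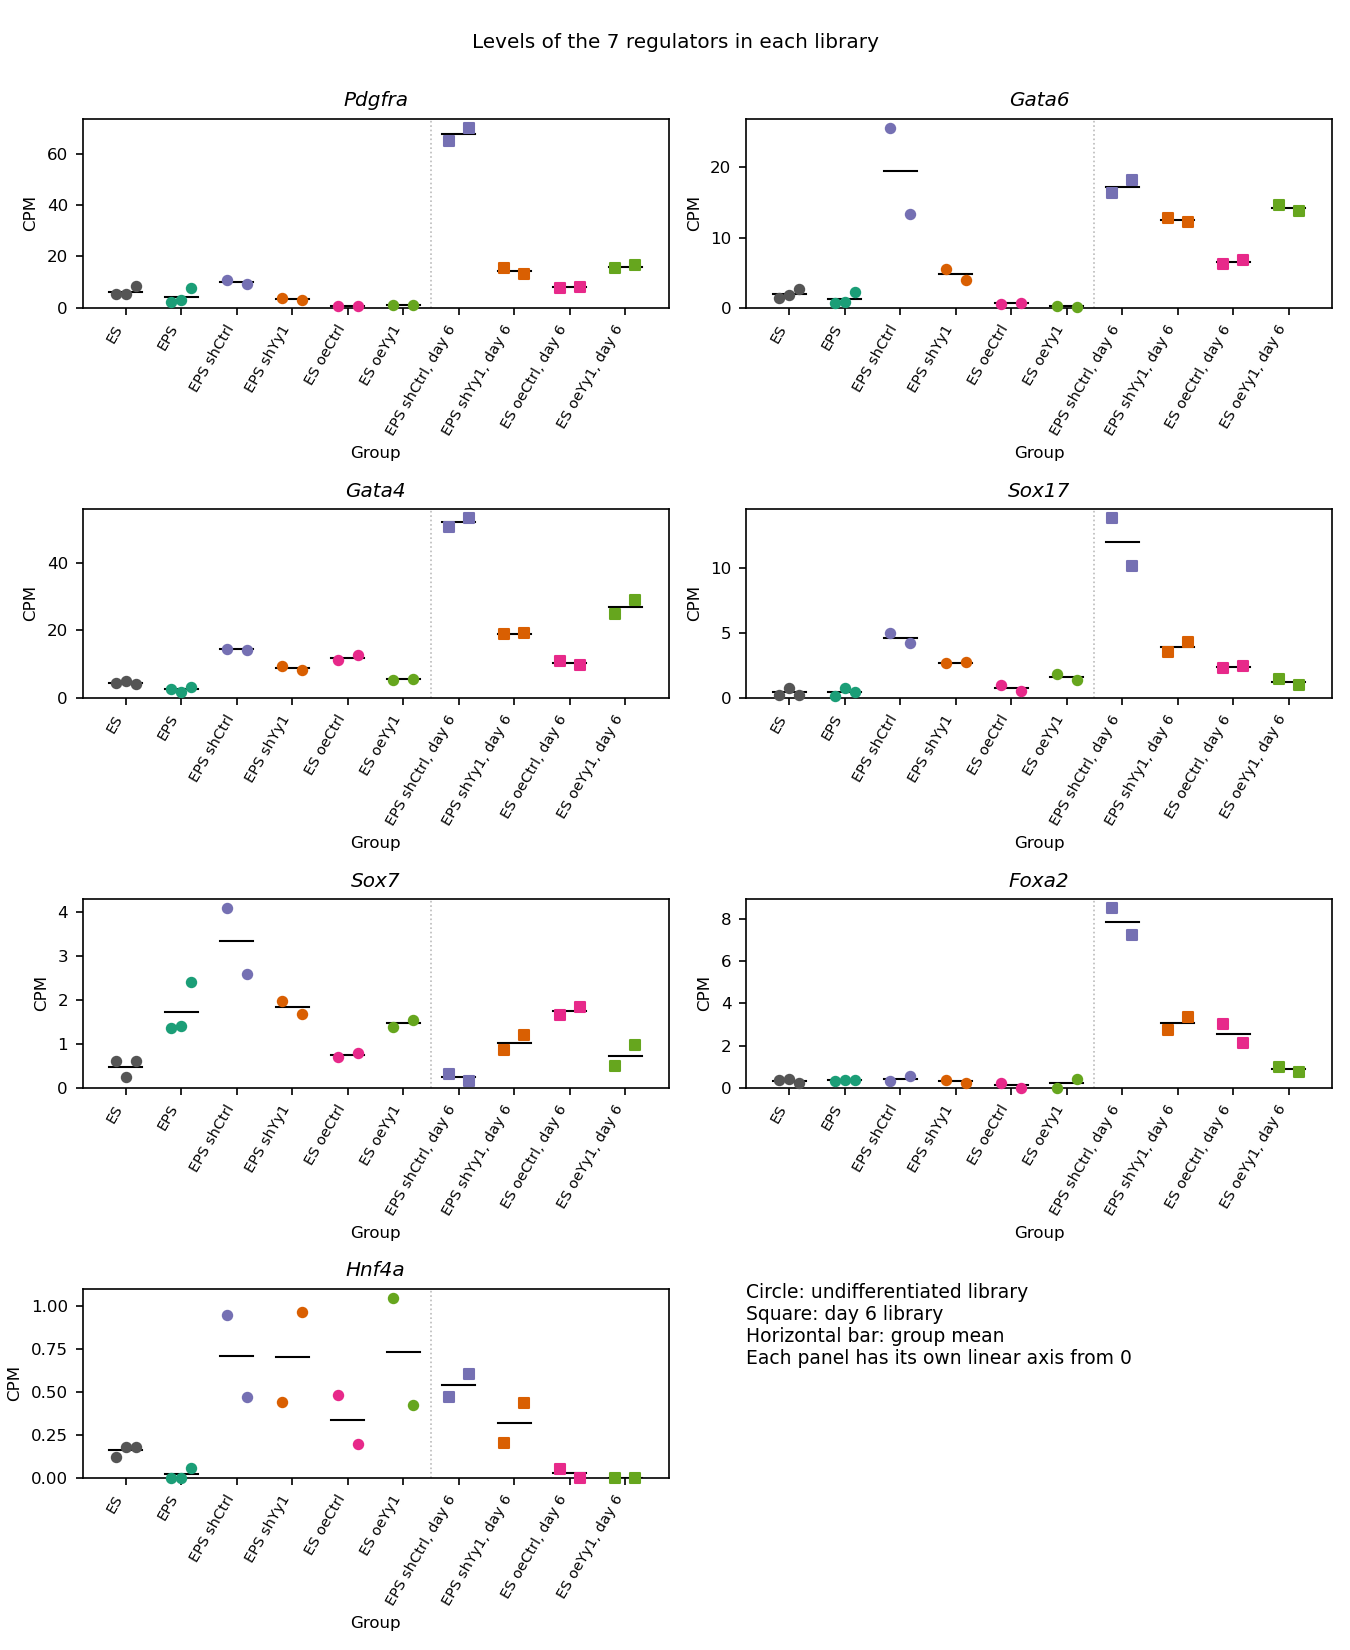
Level of each of the 7 regulators (CPM, a linear axis from 0 in each panel) in every library of the 10 groups; circles are undifferentiated libraries, squares day 6 libraries and horizontal bars group means. Day 6 EPS shCtrl was highest for Pdgfra (64.9 and 70.0 CPM), Gata4, Sox17 and Foxa2 and lowest in its mean for Sox7 (0.314 and 0.151 CPM).

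The comparison of plain EPS with ES cells addresses whether the 2 pluripotent states differ in these regulators. Gata4 was 1.74-fold lower (log2 fold change -0.80 ± 0.22, adjusted p = 0.011) in EPS, with all 3 EPS libraries below all 3 ES libraries. Sox7 was 3.68-fold higher (log2 fold change 1.88 ± 0.38, adjusted p = 0.00122), again without overlap. Over all 16440 genes tested 13.8% were called higher and 16.9% lower, and of the 7 members 6 passed the count filter, 1 was called higher and 1 lower. These counts are from the main model, which holds no replicate block. The call for Gata4 was lost without EPS replicate 2 (adjusted p = 0.0638) and when the model held only these 6 libraries (adjusted p = 0.055). Pdgfra (log2 fold change -0.51 ± 0.32, adjusted p = 0.243) and Gata6 (log2 fold change -0.62 ± 0.40, adjusted p = 0.257) were not called. Both were highest in replicate 3 of ES and of EPS, the libraries with the highest fibroblast sums. Without EPS replicate 3, Pdgfra was called lower in EPS (log2 fold change -1.15, adjusted p = 0.00219), as was Gata6 (-1.30, adjusted p = 0.0175). Pdgfra was also called lower without replicate 3 of both groups (log2 fold change -0.92, adjusted p = 0.00746) and with the replicate number as a block (-0.60, adjusted p = 0.0309). Sox17 (log2 fold change 0.32 ± 0.55, adjusted p = 0.701) was not called, and its sign turned without EPS replicate 2 (log2 fold change -0.31). Hnf4a had 8 counts in ES and 1 in EPS and was not called (adjusted p = 0.0894).

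The EPS line with the control hairpin lay above plain EPS cells for every member tested. All 6 members tested were called higher in EPS shCtrl, in a comparison in which 28.9% of all genes were called higher and 27.4% lower. Gata6 was 14.4-fold higher (log2 fold change 3.85 ± 0.38, adjusted p = 4.69e-07) and Gata4 5.40-fold higher (log2 fold change 2.43 ± 0.23, adjusted p = 2.02e-07). Sox17 was 8.63-fold higher (log2 fold change 3.11 ± 0.46, adjusted p = 2.31e-05). Hnf4a had 23 counts against 1, a ratio of 39.5 after scaling to library totals with an exact 95% interval of 6.41 to 1625 for counting error only. Pdgfra was 2.17-fold higher (log2 fold change 1.12 ± 0.34, adjusted p = 0.0106), and was not called without EPS shCtrl replicate 1 (adjusted p = 0.0539). Without EPS replicate 3, which held the highest fibroblast sum of its group, the log2 fold change was 1.75 for Pdgfra, 4.52 for Gata6 and 6.49 for Hnf4a, and without EPS replicate 2 it was 3.74 for Sox17. Sox7 was 1.78-fold higher (log2 fold change 0.83 ± 0.34, adjusted p = 0.0468), with a call that was lost under several settings, among them DESeq2 (adjusted p = 0.0955) and the fits without EPS replicate 1 (0.136), EPS replicate 2 (0.133) or EPS shCtrl replicate 1 (0.329). EPS shYy1, set against plain EPS in a comparison added after the data were seen and sharing those EPS libraries, was called higher for Gata6 (1.76 ± 0.41), Gata4 (1.65 ± 0.23), Sox17 (2.28 ± 0.48) and Hnf4a (22 counts against 1), where 32.1% of all genes were called higher and 29.6% lower. Its values for Gata6 and Hnf4a were 2.43 and 6.45 without EPS replicate 3, that for Hnf4a was 3.96 without EPS shYy1 replicate 2, and that for Sox17 was 2.90 without EPS replicate 2. Pdgfra (log2 fold change -0.52 ± 0.38, adjusted p = 0.241) and Sox7 (log2 fold change -0.09 ± 0.37, adjusted p = 0.842) were not called there, and both signs turned without EPS replicate 3 (log2 fold change 0.12 and 0.17). The passage of the lines is not given in the sources used here, and the hairpin and the history of a line cannot be told apart.

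The ES line labelled oeCtrl was called higher than plain ES cells for 1 member and lower for 2. Against ES, Pdgfra was 9.55-fold lower (log2 fold change -3.26 ± 0.47, adjusted p = 2.77e-05) and Gata4 2.61-fold higher (log2 fold change 1.38 ± 0.22, adjusted p = 7.03e-05). Gata6 was 3.17-fold lower (log2 fold change -1.66 ± 0.52, adjusted p = 0.0139), a call lost without either oeCtrl library (adjusted p = 0.101 and 0.0533). Of all genes, 25.5% were called higher and 25.1% lower. Sox17 (log2 fold change 0.83 ± 0.59, adjusted p = 0.251), Sox7 (log2 fold change 0.57 ± 0.48, adjusted p = 0.333) and Hnf4a (log2 fold change 1.00 ± 0.80, adjusted p = 0.318) were not called. The fibroblast sum went with Pdgfra and Gata6, from 2530.2 to 4568 CPM in ES to 18.2 to 20.1 in ES oeCtrl, and its part in the lower Pdgfra was not tested. Between the 2 control lines, EPS shCtrl was above ES oeCtrl for Gata6 by 4.89 ± 0.50, Pdgfra by 3.86 ± 0.49, Sox17 by 2.60 ± 0.51 and Sox7 by 2.14 ± 0.43 on the log2 scale, while Gata4 (log2 fold change 0.25 ± 0.23, adjusted p = 0.419) and Hnf4a (log2 fold change 1.03 ± 0.72, adjusted p = 0.27) were not called. These 4 calls of 6 members tested stand beside 19.7% of all genes called higher and 20.7% lower, and EPS shCtrl enters both this comparison and the one with EPS.

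**Figure D2:**
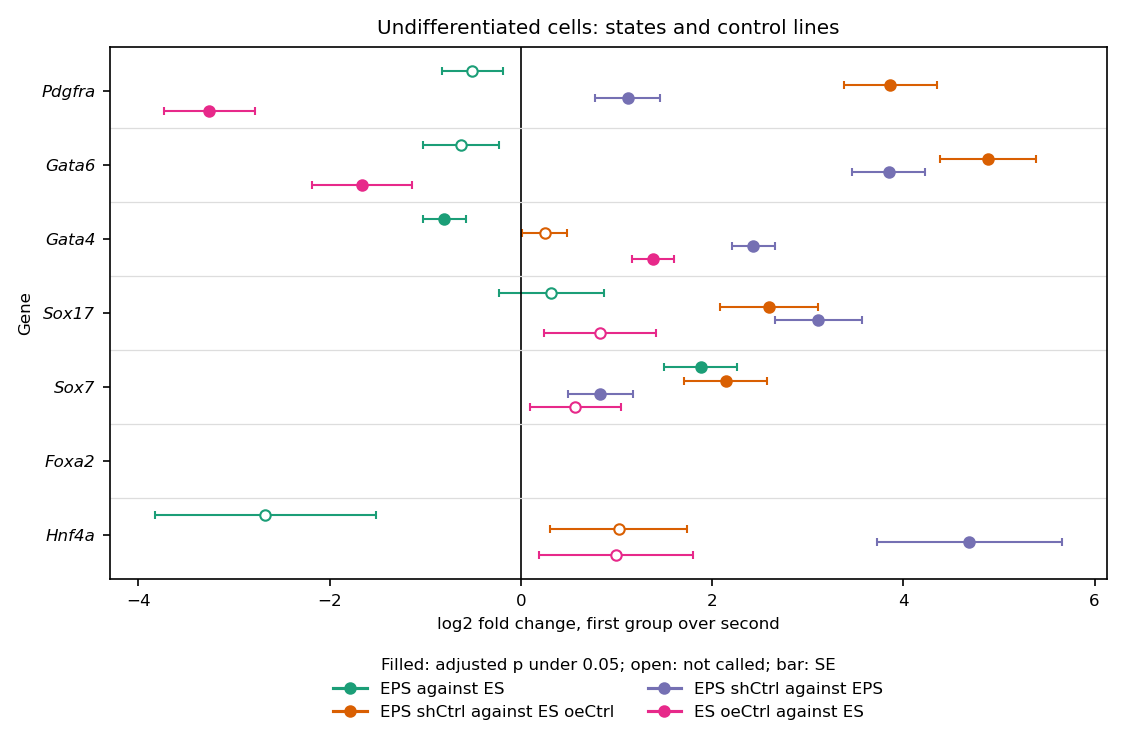
log2 fold changes (x axis) of the members (y axis) in the 4 comparisons of undifferentiated states and control lines; filled points were called, open points not, and bars are standard errors. All 6 members tested were higher in EPS shCtrl than in EPS (purple), whereas ES oeCtrl against ES (magenta) ranged from -3.26 for Pdgfra to 1.38 for Gata4. Foxa2 did not pass the filter.

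Lowering Yy1 with the hairpin in undifferentiated EPS cells addresses whether the regulators change with it. Gata6 had the largest change, to 5.56 and 3.97 CPM in EPS shYy1 from 25.6 and 13.3 in EPS shCtrl, 4.24-fold lower (log2 fold change -2.08 ± 0.40, adjusted p = 0.00097). Pdgfra was 3.11-fold lower (log2 fold change -1.63 ± 0.40, adjusted p = 0.00559) and Gata4 1.72-fold lower (log2 fold change -0.78 ± 0.24, adjusted p = 0.0211). Of the 6 members tested 3 were called lower and 0 higher, where 13.3% of all genes were called lower and 15.1% higher. Without EPS shYy1 replicate 2 neither Pdgfra (adjusted p = 0.0622) nor Gata4 (0.148) was called, and Gata4 was also lost without EPS shCtrl replicate 2 (0.0809) or EPS shYy1 replicate 1 (0.064). Sox17 (log2 fold change -0.83 ± 0.44, adjusted p = 0.172) and Sox7 (log2 fold change -0.92 ± 0.39, adjusted p = 0.083) were not called, although both EPS shYy1 libraries lay below both controls. Hnf4a was not called (log2 fold change -0.04 ± 0.64, adjusted p = 0.977), and its sign turned in 3 of the alternative fits. The fibroblast sum went the other way, at 72.1 to 84.7 CPM in EPS shYy1 and 28.5 to 44.7 in EPS shCtrl. For all 3 genes that were called lower, EPS shYy1 lay between EPS shCtrl and plain EPS or overlapped the latter, with Pdgfra at 3.66 and 3.07 CPM against 2.37, 2.84 and 7.69 in EPS.

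Between the undifferentiated lines ES oeYy1 and ES oeCtrl, 1 of the 6 members tested was called. Gata4 was 2.20-fold lower (log2 fold change -1.14 ± 0.25, adjusted p = 0.00202), with 5.30 and 5.57 CPM in ES oeYy1 and 11.3 and 12.5 in ES oeCtrl, in a comparison with 17.1% of all genes called lower and 14.8% higher. Gata6 lay lower in both oeYy1 libraries and was not called (log2 fold change -1.87 ± 0.86, adjusted p = 0.111). It was called in 2 of the alternative fits, 1 of them without a count filter (adjusted p = 0.0342). Sox17 was not called (log2 fold change 1.09 ± 0.55, adjusted p = 0.143), except in a model of these 4 libraries alone (adjusted p = 0.0398). Sox7 (log2 fold change 0.97 ± 0.46, adjusted p = 0.119), Pdgfra (log2 fold change 0.39 ± 0.61, adjusted p = 0.672) and Hnf4a (log2 fold change 1.12 ± 0.72, adjusted p = 0.258) were not called. Gata4 was thus called lower both with the hairpin in EPS cells and with oeYy1 in ES cells, 2 comparisons that share no library.

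A stay of 6 days in F4H medium changed the regulators in every line, but not all of them and not all upward. Pdgfra was called higher in all 4 lines: it was 6.13-fold higher (log2 fold change 2.62 ± 0.13, adjusted p = 1.48e-13) in EPS shCtrl and 4.39-fold higher (log2 fold change 2.13 ± 0.16, adjusted p = 1.55e-10) in EPS shYy1. In the ES lines it was 11.7-fold higher (log2 fold change 3.54 ± 0.24, adjusted p = 1.60e-11) in oeCtrl and 17.1-fold higher (log2 fold change 4.10 ± 0.21, adjusted p = 1.90e-13) in oeYy1. Foxa2 also rose in all 4, by 4.05 ± 0.46 in EPS shCtrl, 3.37 ± 0.54 in EPS shYy1 and 1.98 ± 0.74 in ES oeYy1 on the log2 scale. In ES oeCtrl it went from 3 counts to 96, a ratio of 25.9 after scaling to library totals (exact 95% interval 8.59 to 128), and the fitted log2 value was 8.47 without oeCtrl replicate 1 and 3.62 without replicate 2. The rise of Foxa2 in ES oeYy1 (adjusted p = 0.0211) was lost without oeYy1 replicate 1 (adjusted p = 0.213; log2 fold change 1.01) or day 6 oeYy1 replicate 1 (adjusted p = 0.0891), and was larger without oeYy1 replicate 2 (log2 fold change 6.87). Of all genes 37.5% were called higher in EPS shCtrl, 37.9% in EPS shYy1, 37.1% in ES oeCtrl and 35.7% in ES oeYy1, and in the same lines 36.6%, 37.4%, 35.9% and 36.9% were called lower. Of the 7 members, 4 were called higher in each of EPS shCtrl, EPS shYy1 and ES oeYy1, and 5 in ES oeCtrl. Called lower were 1 in EPS shCtrl, 0 in EPS shYy1, 1 in ES oeCtrl and 2 in ES oeYy1. Stage and sequencing run cannot be told apart, because the labels give no run and each library is of 1 stage.

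The GATA factors split by line. Gata6 rose from 0.550 and 0.719 to 6.17 and 6.84 CPM in ES oeCtrl (log2 fold change 3.34 ± 0.35, adjusted p = 2.40e-08) and from 0.196 and 0.141 to 14.7 and 13.8 CPM in ES oeYy1, 76.8-fold higher (log2 fold change 6.26 ± 0.41, adjusted p = 1.34e-11). The rise in ES oeYy1 started from 5 counts in both libraries together. Gata6 also rose in EPS shYy1 (1.45 ± 0.23) and was not called in EPS shCtrl (log2 fold change -0.29 ± 0.19, adjusted p = 0.178), the line with the highest undifferentiated level. The value in EPS shCtrl rests on which undifferentiated library is used: it was 0.23 without EPS shCtrl replicate 1 and -0.61 (adjusted p = 0.000646) without replicate 2. Gata4 showed another order: it rose in ES oeYy1 (2.24 ± 0.14), EPS shCtrl (1.72 ± 0.12) and EPS shYy1 (1.18 ± 0.14), and was not called in ES oeCtrl (log2 fold change -0.20 ± 0.14, adjusted p = 0.186).

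Of the SOX factors, Sox7 fell in the EPS control line and rose in the ES control line. Sox17 rose in ES oeCtrl (1.65 ± 0.35) and EPS shCtrl (1.25 ± 0.23) and was not called in EPS shYy1 (log2 fold change 0.58 ± 0.27, adjusted p = 0.0523) or ES oeYy1 (log2 fold change -0.49 ± 0.35, adjusted p = 0.216). In a model of the 4 EPS shYy1 libraries alone Sox17 was called (adjusted p = 0.049). Sox7 fell in EPS shCtrl, from 4.09 and 2.59 to 0.314 and 0.151 CPM, 15.3-fold lower (log2 fold change -3.93 ± 0.45, adjusted p = 7.90e-08). It rose in ES oeCtrl (1.23 ± 0.41, adjusted p = 0.0106), though not without oeCtrl replicate 1 (adjusted p = 0.0635). In ES oeYy1 it was called lower (-1.06 ± 0.43, adjusted p = 0.0341), a call lost with DESeq2 (adjusted p = 0.0918), without a count filter (0.0912) and without oeYy1 replicate 1 (0.0791), oeYy1 replicate 2 (0.142) or day 6 oeYy1 replicate 1 (0.293; log2 fold change -0.62). In EPS shYy1 it was not called (log2 fold change -0.79 ± 0.39, adjusted p = 0.0702). Hnf4a was at least 3.52-fold lower at day 6 in ES oeYy1, from 22 counts to 0, taking 3 counts per library as the floor. In ES oeCtrl it went from 10 counts to 1 and was called lower, though not without oeCtrl replicate 1 (adjusted p = 0.165) or day 6 oeCtrl replicate 2 (0.111). It was not called in the EPS lines (adjusted p = 0.463 in shCtrl and 0.143 in shYy1).

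**Figure D3:**
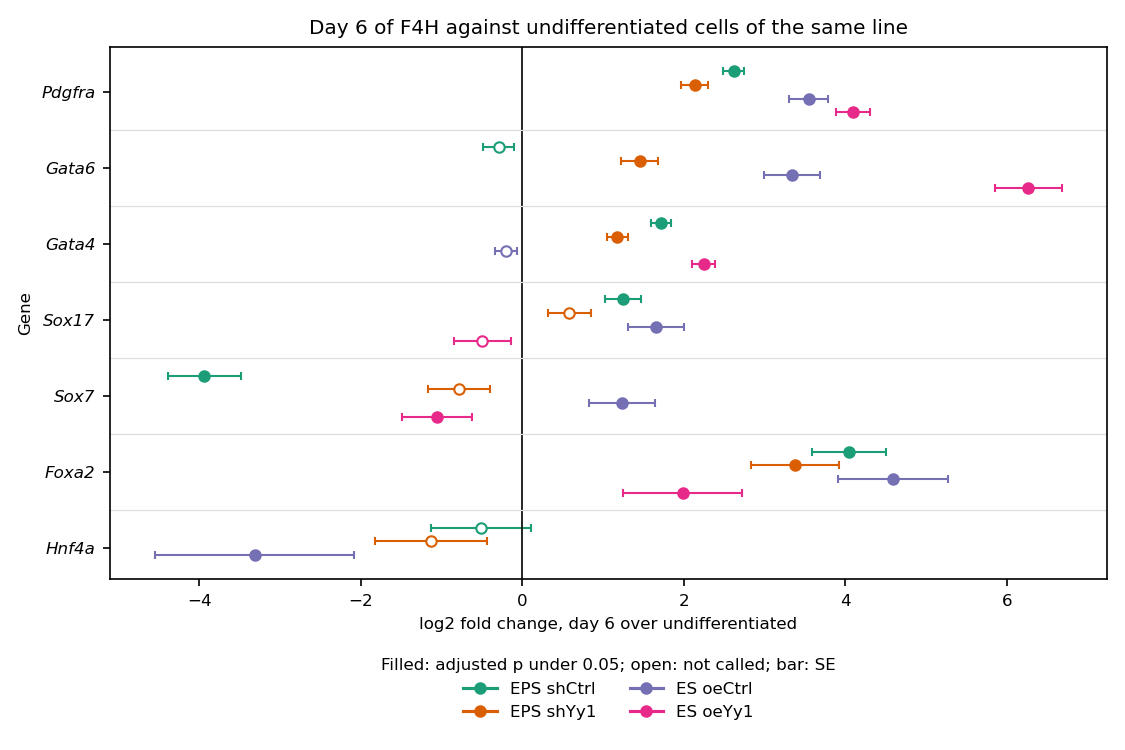
log2 fold changes (x axis) of the members (y axis) between day 6 in F4H medium and the undifferentiated cells of the same line; filled points were called, open points not, and bars are standard errors. Pdgfra and Foxa2 lie above 0 in all 4 lines, Gata6 spans -0.29 (EPS shCtrl) to 6.26 (ES oeYy1), and Sox7 is lowest in EPS shCtrl at -3.93. Hnf4a in ES oeYy1 is not drawn because it had 0 counts at day 6.

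At day 6, the 2 EPS lines differed at all 6 members tested. Pdgfra was 4.32-fold lower (log2 fold change -2.11 ± 0.09, adjusted p = 2.11e-29) in the libraries labelled EPS shYy1, and Gata4 2.49-fold lower (log2 fold change -1.32 ± 0.09, adjusted p = 1.55e-20). Sox17 was 2.82-fold lower (log2 fold change -1.50 ± 0.18, adjusted p = 1.30e-10) and Foxa2 2.36-fold lower (log2 fold change -1.24 ± 0.21, adjusted p = 5.33e-07). Gata6 had the smallest difference, 1.26-fold lower (log2 fold change -0.34 ± 0.12, adjusted p = 0.00991), and was not called with DESeq2 (adjusted p = 0.0694) or without day 6 EPS shYy1 replicate 2 (0.0677) or day 6 EPS shCtrl replicate 2 (0.142). Sox7 went the other way and was 4.70-fold higher (log2 fold change 2.23 ± 0.56, adjusted p = 0.000501), from low levels of 0.314 and 0.151 CPM in EPS shCtrl to 0.866 and 1.19 in EPS shYy1. The 5 calls lower and 1 higher stand beside 30.4% of all genes called lower and 30.9% higher, and Yy1 itself was not called different between these libraries. The mesendoderm sum moved with the first 4 genes, at 241 to 252 CPM in EPS shYy1 and 572 to 586 in EPS shCtrl, and 7 of its 8 genes were called lower; the fibroblast sum moved the other way, at 3039 to 3056 against 1209 to 1216 CPM. Their part in the result was not tested.

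At day 6, ES oeYy1 differed from ES oeCtrl in both directions across the members. Gata4 was 2.53-fold higher (log2 fold change 1.34 ± 0.11, adjusted p = 2.38e-16) in ES oeYy1, Gata6 2.13-fold higher (log2 fold change 1.09 ± 0.14, adjusted p = 1.60e-09) and Pdgfra 1.97-fold higher (log2 fold change 0.98 ± 0.12, adjusted p = 1.32e-09). Foxa2 was 3.05-fold lower (log2 fold change -1.61 ± 0.33, adjusted p = 5.58e-05) and Sox17 2.02-fold lower (log2 fold change -1.02 ± 0.31, adjusted p = 0.00648). Sox7 was 2.43-fold lower (log2 fold change -1.28 ± 0.44, adjusted p = 0.0156). So 3 members were called higher and 3 lower, where 20.3% of all genes were called higher and 21.6% lower. The call for Sox17 was lost without day 6 oeYy1 replicate 2 (adjusted p = 0.0995). That for Sox7 was lost with DESeq2 (adjusted p = 0.0762) and without day 6 oeCtrl replicate 1 (0.0523), oeCtrl replicate 2 (0.0769) or oeYy1 replicate 1 (0.202). The mesendoderm sum was 669 to 746 CPM in ES oeYy1 against 362 to 368 in ES oeCtrl, with 7 of 8 genes called higher, and the fibroblast sum was 2025 to 2105 against 3165 to 3294 CPM. Their part in the result was not tested.

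Between the 2 day 6 control lines, the EPS line was higher for 5 members and lower for Sox7. Pdgfra was 7.73-fold higher (log2 fold change 2.95 ± 0.10, adjusted p = 1.73e-34) and Sox17 4.61-fold higher (log2 fold change 2.20 ± 0.20, adjusted p = 4.00e-15). Gata4 was 4.54-fold higher (log2 fold change 2.18 ± 0.09, adjusted p = 1.02e-28). Foxa2 (1.45 ± 0.21) and Gata6 (1.26 ± 0.13) were also called higher, and Sox7 was 8.10-fold lower (log2 fold change -3.02 ± 0.51, adjusted p = 7.55e-07), with a log2 value of -3.61 without day 6 EPS shCtrl replicate 1. Hnf4a, not tested at day 6, had 21 counts against 1, a ratio of 19.9 after scaling to library totals (exact 95% interval 3.20 to 822). Of all genes 31.6% were called higher and 32.4% lower, and the mesendoderm and fibroblast sums given above stood apart in the same libraries, whose part was not tested. These control libraries also enter the hairpin and the construct comparisons, so the 3 sets of values are not independent of each other.

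**Figure D4:**
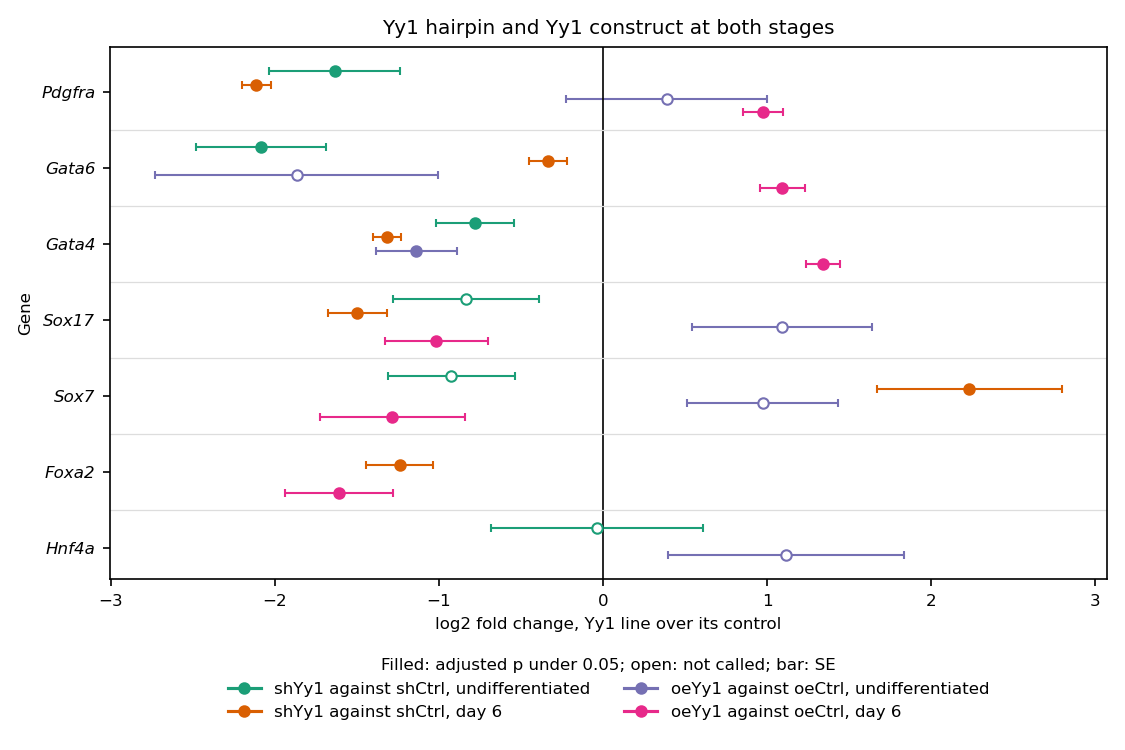
log2 fold changes (x axis) of the members (y axis) with the Yy1 hairpin in EPS cells and with oeYy1 in ES cells, each against its control, at both stages; filled points were called, open points not, and bars are standard errors. Gata4 with oeYy1 changed from -1.14 in undifferentiated cells to 1.34 at day 6, and Sox7 with the hairpin from -0.92 to 2.23.

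Whether an effect itself changed between stages was tested in 1 model of both stages, as the day 6 effect minus the undifferentiated effect on the log2 scale. For the hairpin, Gata6 (1.75 ± 0.30, adjusted p = 9.32e-05) and Sox7 (3.15 ± 0.62, adjusted p = 0.000332) changed upward, Gata6 from a large fall to a small one and Sox7 from a value below 0 to a rise. Gata4 changed further downward (-0.54 ± 0.18, adjusted p = 0.0217), but not without EPS shYy1 replicate 1 (adjusted p = 0.0958), day 6 EPS shYy1 replicate 1 (0.0574) or 2 (0.0516), or day 6 EPS shCtrl replicate 2 (0.0893). Pdgfra was not called (log2 fold change -0.48 ± 0.22, adjusted p = 0.0823), except without EPS shCtrl replicate 1 (adjusted p = 0.0475) and with a filter of at least 1 CPM in 2 libraries (0.0483). For oeYy1, Gata6 (2.92 ± 0.77) and Gata4 (2.45 ± 0.20) changed upward and Sox17 (-2.15 ± 0.50) and Sox7 (-2.29 ± 0.60) downward, and Gata4 was called lower at one stage and higher at the other. Pdgfra (log2 fold change 0.55 ± 0.41, adjusted p = 0.346) and Foxa2 (log2 fold change -2.60 ± 1.26, adjusted p = 0.113) were not called, and Foxa2 was called without ES oeCtrl replicate 1 (adjusted p = 0.0374) or ES oeYy1 replicate 1 (0.0181) and changed sign without ES oeYy1 replicate 2 (log2 value 2.27), with undifferentiated counts of 0 to 6 per library. The change over 6 days in F4H medium differed between the EPS and the ES control line for Sox7 (-5.17 ± 0.61), Gata6 (-3.63 ± 0.41), Pdgfra (-0.93 ± 0.31) and, upward, Gata4 (1.92 ± 0.18). That for Pdgfra (adjusted p = 0.0164) was lost without ES oeCtrl replicate 1 (adjusted p = 0.163). Of all genes 41.5% were called for the hairpin, 37.6% for oeYy1 and 48.7% for the origin of the line, and of the 7 members 3, 4 and 4.

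The wider primitive endoderm programme was read from 19 further genes, mostly of endocytosis and basement membrane. The shares of all genes called higher and lower in the same comparison stand in brackets after each count. With the hairpin at day 6 it had 11 of 19 called higher and 5 lower (all genes 30.9% and 30.4%, median log2 fold change 0.55 against -0.01 over all genes tested), with the endocytic receptor Lrp2 at 2.40 ± 0.05, the collagen Col4a1 at 1.45 ± 0.04 and the linker Nid1 at 1.54 ± 0.05. With oeYy1 at day 6 it had 4 of 19 called higher and 12 lower (all genes 20.3% and 21.6%, median log2 fold change -0.27 against 0.000281 over all genes tested), among them Nid1 at -1.31 ± 0.05 and the homeobox gene Rhox5 at -2.87 ± 0.20. Between the day 6 control lines it had 5 of 19 called higher and 11 lower (all genes 31.6% and 32.4%, median log2 fold change -0.40 against 0.02 over all genes tested), and Lrp2 was lower in the EPS line (-2.52 ± 0.05) where Pdgfra, Gata4, Gata6, Sox17 and Foxa2 were higher. In undifferentiated cells EPS shCtrl against EPS had 7 of 19 called higher and 2 lower (all genes 28.9% and 27.4%, median log2 fold change 0.55 against 0.02 over all genes tested), with the uptake receptors Cubn (5.17 ± 0.50) and Lrp2 (2.90 ± 0.22) higher beside the regulators. With the hairpin in undifferentiated cells it had 5 of 19 called higher and 9 lower (all genes 15.1% and 13.3%, median log2 fold change -0.45 against -0.01 over all genes tested), where the activin antagonist Fst fell (-1.98 ± 0.28) and Nid1 (1.39 ± 0.20) and Cited1 (2.62 ± 0.43) rose. EPS against ES had 1 of 19 called higher and 9 lower (all genes 13.8% and 16.9%, median log2 fold change -0.57 against -0.00460 over all genes tested), led by the matrix protein Sparc (-1.79 ± 0.14), which fibroblasts also make. With oeYy1 in undifferentiated cells it had 4 of 19 called higher and 1 lower (all genes 14.8% and 17.1%, median log2 fold change 0.20 against 0.01 over all genes tested). In F4H medium 10 to 12 of the 19 were called higher and 4 to 8 lower, beside 35.7% to 37.9% of all genes called higher and 35.9% to 37.4% lower in the 4 lines, and Lrp2 rose by 2.65 ± 0.10 in EPS shCtrl and 7.23 ± 0.13 in ES oeCtrl.

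The inputs to these regulators were followed through FGF and PDGF genes. Fgf4, the ligand from epiblast that favours primitive endoderm, rose with the hairpin in undifferentiated EPS cells (1.18 ± 0.12) while Gata6 fell, and the epiblast factor Nanog rose as well (1.04 ± 0.13). Of 15 FGF and ERK genes 1 was called higher and 1 lower there, and of 8 epiblast factors 4 and 1, beside 15.1% higher and 13.3% lower of all genes. With oeYy1 in ES cells the FGF and ERK genes had 1 of 15 called higher and 3 lower, and the epiblast factors 4 of 8 called higher and 0 lower, with Klf2 at 0.82 ± 0.15, beside 14.8% higher and 17.1% lower of all genes. Over 6 days in F4H medium Fgf4 fell in all 4 lines (-6.81 ± 0.18 in EPS shCtrl and -5.41 ± 0.15 in ES oeCtrl), its receptor Fgfr1 rose (2.12 ± 0.08 and 1.61 ± 0.08), and all 8 epiblast factors were called lower in each line, beside 35.9% to 37.4% of all genes. At day 6 the FGF and ERK genes had 5 of 14 called higher and 5 lower with the hairpin and, of 14 tested, 3 higher and 6 lower with oeYy1, beside 30.9% higher and 30.4% lower of all genes with the hairpin and 20.3% higher and 21.6% lower with oeYy1. The kinase gene Mapk3 fell with the hairpin (-1.25 ± 0.06) and rose with oeYy1 (0.71 ± 0.06). Ligands of the PDGF family ran against their receptor Pdgfra at day 6: with the hairpin Pdgfb (1.78 ± 0.06) and Pdgfc (2.02 ± 0.10) rose and with oeYy1 they fell (-0.72 ± 0.06 and -0.65 ± 0.11). In undifferentiated cells Pdgfc rose with the hairpin (1.94 ± 0.18) and fell with oeYy1 (-1.39 ± 0.18), while Pdgfra fell with the hairpin and was not called with oeYy1. Of the 5 PDGF genes, 3 were called higher and 1 lower with the hairpin at day 6, and 1 and 4 with oeYy1, beside the same shares of all genes.

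Genes of the derivatives of primitive endoderm were counted in the same way, at day 6, where all genes had 30.9% higher and 30.4% lower with the hairpin and 20.3% higher and 21.6% lower with oeYy1. Of the 14 visceral endoderm genes, 6 to 8 passed the filter, and with the hairpin at day 6 the calls were 0 higher and 2 lower, led by Cer1 (-4.22 ± 0.25), a secreted antagonist also made by definitive endoderm. Cer1 was at 14.3 to 14.7 CPM in day 6 EPS shCtrl, 0.500 to 0.866 in day 6 EPS shYy1 and 0.0589 to 0.201 in day 6 ES oeCtrl, and had 0 counts in every undifferentiated library and in both day 6 ES oeYy1 libraries. With oeYy1 at day 6 the visceral endoderm genes had 1 of 6 called higher and 1 lower, with Foxa1 higher (0.88 ± 0.22) where its relative Foxa2 was lower. The 7 parietal endoderm genes had 4 of 7 called higher and 3 lower with the hairpin (median log2 fold change 0.17) and 1 of 7 called higher and 4 lower with oeYy1 (-0.24). Snai1 among them moved as Pdgfra and Gata4 did, by -1.94 ± 0.08 and 1.34 ± 0.08. Cryab (0.84 ± 0.05 and -0.37 ± 0.05), Plat (0.57 ± 0.07 and -0.30 ± 0.07), Vim (0.17 ± 0.04 and -0.24 ± 0.04) and Thbd (0.42 ± 0.14 and -2.25 ± 0.21) went the other way. Stra6 and Pth1r were called lower with the hairpin and were not called with oeYy1. Of 10 relatives of the members in their families, 2 of 8 tested were called higher and 3 lower with the hairpin at day 6, and 3 and 1 with oeYy1, beside the shares of all genes just given. Gata2 rose with the hairpin (1.38 ± 0.12) and fell with oeYy1 (-1.32 ± 0.11), opposite to Gata4. Members are also used in other cell types, whose markers were summed in each library. Across all libraries, 9 endothelial genes reached 33.1 to 211 CPM, 8 cardiac genes 2.70 to 47.1, 11 trophoblast genes 69.5 to 375 and 4 floor plate genes 4.74 to 271. Of single markers, Cdh5 of endothelium reached at most 4.62 CPM, Tnnt2 of heart 7.29, Shh of floor plate 1.20 and Alb of liver 0.120, and Tpbpa of trophoblast was at 0. These genes do not stand for their whole lists. Other genes of these lists moved with the members or against them. At day 6 the cardiac genes had 2 of 8 called higher and 5 lower with the hairpin and 2 of 8 called higher and 2 lower with oeYy1, and the heart field factors Isl1 (-2.62 ± 0.17 and 2.13 ± 0.17) and Hand2 (-1.90 ± 0.26 and 2.34 ± 0.31) fell with the hairpin and rose with oeYy1. Myh7 (2.25 ± 0.11 and -0.64 ± 0.12) and Nkx2-5 (1.51 ± 0.41 and -1.30 ± 0.37) went the other way in both comparisons. Between the day 6 control lines Isl1 (2.13 ± 0.16) and Hand2 (2.73 ± 0.29) were higher in EPS shCtrl. There Myh7 (-1.58 ± 0.12) and Nkx2-5 (-2.16 ± 0.38) were lower. In F4H medium Kdr, a receptor of endothelium and early mesoderm, rose in all 4 lines, by 6.29 ± 0.23 in EPS shCtrl and 4.62 ± 0.19 in ES oeCtrl, as did Hand1, a factor of trophoblast and early mesoderm, by 7.75 ± 0.20 and 8.33 ± 0.28. From the same lists Pecam1 (-4.39 ± 0.22 and -5.95 ± 0.23), Tek (-3.23 ± 0.44 and -2.29 ± 0.36) and Tfap2c (-2.11 ± 0.25 and -2.22 ± 0.24) were called lower in all 4 lines. The endothelial sum was 69.7 to 211 CPM in the undifferentiated lines and 33.1 to 48.5 at day 6. The part of other cell types in the members' levels was not tested. The 6 liver and gut genes reached 100.4 to 158 CPM in EPS shCtrl and 56.4 to 70.6 in EPS shYy1 through Cdx1, and at most 7.59 in the other groups.

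**Figure D5:**
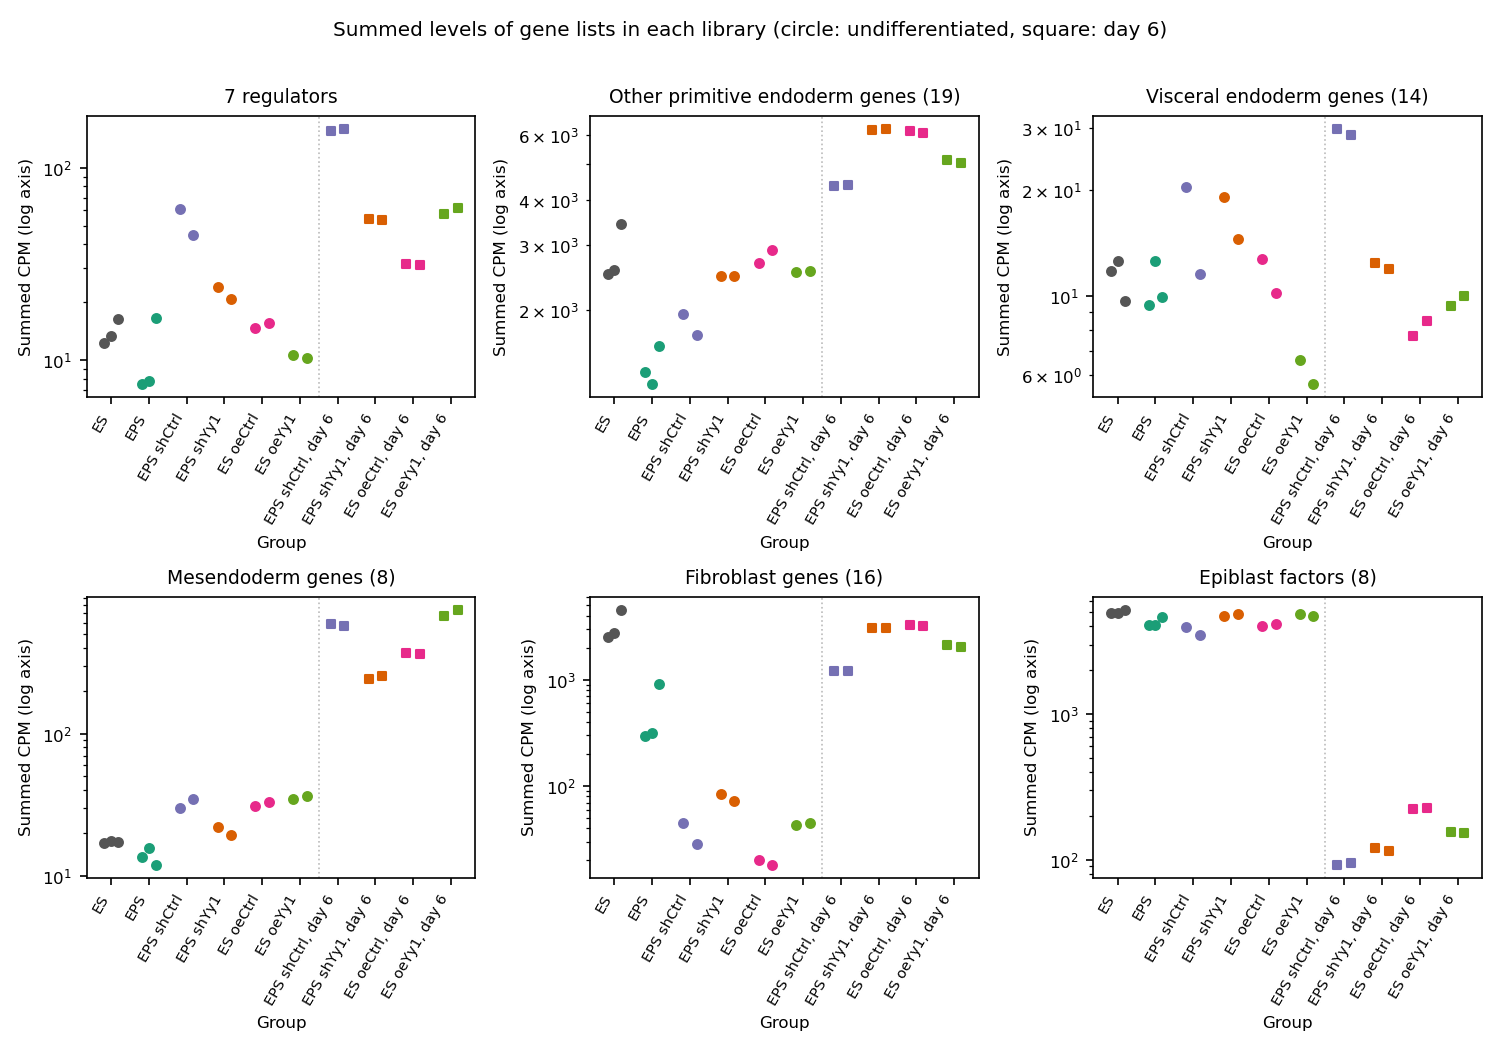
Summed level (CPM, log axis) of the 7 regulators and of 5 gene lists in each library of the 10 groups; circles are undifferentiated and squares day 6 libraries. The regulators summed to 155 to 159.7 CPM in day 6 EPS shCtrl, the highest group, where the 19 other primitive endoderm genes and the fibroblast genes were the lowest of the day 6 groups. The visceral endoderm genes were highest in day 6 EPS shCtrl as well, at 28.6 to 29.8 CPM against 7.73 to 12.4 in the other day 6 groups.

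Across libraries the members fell into patterns that Pearson's r of log2 CPM describes, without a test, over 14 undifferentiated or 8 day 6 libraries that share lines and controls. At day 6, Pdgfra ran with Gata4 (r = 0.95) and Gata6 (0.82), Sox17 ran with Foxa2 (0.97), and Sox7 ran against Pdgfra (-0.94) and Gata4 (-0.93). Sox7 averaged 0.933 CPM at day 6, with 3 to 33 counts per library, so its r values rest on low counts. In undifferentiated cells Pdgfra and Gata6 again ran together (0.81). The genes most like each member there were Fkbp10 (0.965), Lamb1 (0.939) and Fstl1 (0.938) for Pdgfra, Tyms (0.942), Inhbb (0.940) and 6030419C18Rik (0.938) for Gata6 and Dna2 (0.958), Scaf1 (0.956) and Zfp239 (0.955) for Gata4. They were Kcng1 (0.958), Prpf6 (0.942) and Gm11611 (0.941) for Sox17 and Greb1 (0.954), Ift88 (0.949) and Inpp5f (0.942) for Sox7, while Foxa2 and Hnf4a averaged under 1 CPM and were left out. At day 6 they were Hyi (0.997), Cacnb3 (0.996) and Myrf (0.995) for Pdgfra, Spata1 (0.990), Fam53b (0.984) and Rian (0.983) for Gata6 and 1110012L19Rik (0.998), Hcfc1r1 (0.996) and Crb2 (0.996) for Gata4. Those for Sox17 were Spg21 (0.996), Sar1b (0.990) and Vta1 (0.988) and for Foxa2 Sdhb (0.994), 9930012K11Rik (0.992) and Csf2ra (0.991). Sox7 and Hnf4a averaged under 1 CPM at day 6 and were left out there. For Pdgfra, Gata6, Gata4 and Sox17, the 3 genes named at one stage shared no gene with those at the other.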

How the data were processed

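RNA-seq read counts per gene symbol were deposited by the authors as 22 tables, 1 per library and without normalization. Per the submitters' processing notes, CASAVA, Bowtie2 2.3.2, mm10 and GRCm38.p6 were used in the series, without saying for which data; the counting tool and its strand setting are not given in the sources used here. Summary lines that name no gene were left out, with no-feature reads at 5.61 to 8.62% of all counted and summary reads, ambiguous reads at 3.70 to 5.32% and reads not aligned uniquely at 5.45 to 6.66%.

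Counts were tested with edgeR 4.0.16 in R 4.3.3 (TMM factors, filterByExpr, robust quasi-likelihood F-test), with Benjamini-Hochberg adjustment over all genes of a comparison, in 1 model of 14 undifferentiated libraries (16440 genes), 1 of 8 day 6 libraries (15927 genes) and 1 of the 16 libraries of the lines at both stages (17207 genes). The scripts were tested on simulated data. Standard errors are the log2 fold change divided by the root of F. No pair of replicates differed by as little as sampling noise (chi-square per degree of freedom 1.84 to 31.1). ES and EPS libraries of the same number deviated together from their group means (r = 0.243, 0.319 and 0.545 over 11072 genes). The main test of EPS against ES did not use this pairing, and the blocked value is given beside Pdgfra. The block was fitted over all 14 undifferentiated libraries, the lines among them, so it is not a paired test of ES and EPS alone.

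The members and all lists were chosen with earlier results of these data known. All 7 members were named in every comparison, of each list up to 3 called genes of smallest p (1 result is not reported here), and for likeness the 3 genes with the highest Pearson r of log2 CPM (prior count 2) among genes with a mean of at least 1 CPM. Lists were other primitive endoderm, visceral endoderm, parietal endoderm, FGF and ERK, PDGF, epiblast and family genes, and markers of fibroblasts, endothelium, mesendoderm, heart, trophoblast, liver and gut, and floor plate. Alternatives were DESeq2 1.42.0, its size factors in edgeR (RLE), no count filter, at least 1 CPM in 2 libraries, only the libraries compared, a replicate block and leaving out each library; leaving out replicate 3 of both ES and EPS, and EPS shYy1 against EPS, were added after seeing the data.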

Additional observations from a re-analysis of the deposited data

Results flagged for a closer look

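Of the 21 changes of an effect tested on members between stages or between lines, 11 were called, each by edgeR's test of the difference itself, and all are log2 values. The difference between EPS shYy1 and EPS shCtrl, day 6 minus undifferentiated, changed by 1.75 for Gata6, -0.54 for Gata4 and 3.15 for Sox7, where 41.5% of all genes were called. Gata6 was 4.24-fold lower with the hairpin before F4H medium and 1.26-fold lower after it, while Yy1 itself was not called different at day 6. Sox7 was not called before and was higher after. The change for Gata4 was not called without some single libraries named above.

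The effect of oeYy1, day 6 minus undifferentiated, changed by 2.92 for Gata6, 2.45 for Gata4, -2.15 for Sox17 and -2.29 for Sox7, where 37.6% of all genes were called. Gata4 was called lower in undifferentiated ES oeYy1 cells and higher at day 6. Both GATA genes thus changed upward and both SOX genes downward.

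The response to F4H medium, EPS shCtrl minus ES oeCtrl, differed by -0.93 for Pdgfra, -3.63 for Gata6, 1.92 for Gata4 and -5.17 for Sox7, where 48.7% of all genes were called. Gata6 rose in the ES line and was not called in the EPS line, Gata4 the other way round, Pdgfra rose in both, and Sox7 fell in the EPS line and rose in the ES line. The difference for Pdgfra was not called without ES oeCtrl replicate 1.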

How the results depend on the processing

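Of 109 member results tested, 79 kept their direction and their side of the threshold under every alternative, 58 of them called, and no called result changed sign. Over 1182 alternative values, 39 lost a call, 13 gained one and 15 changed sign. In EPS against ES, where 2 members were called, 1 was called in a model of the 6 libraries alone, and 1 to 4 when single libraries were left out. With the hairpin in undifferentiated EPS cells 3 were called, and 1 to 3 without single libraries. With oeYy1 in undifferentiated ES cells 1 was called, and 2 without a count filter, 2 with the replicate block (Gata6 as well, adjusted p = 0.0382) and 2 with only the libraries compared; the cause was not tested. With the replicate block, Hnf4a with the hairpin was 0.038 and Sox7 in EPS shYy1 against EPS 0.14. Without replicate 3 of both ES and EPS, Pdgfra in the latter comparison was 0.12 and Sox7 0.17. Leaving out single libraries gave log2 values that changed sign for results not called: Sox17 in EPS against ES (-0.31 to 1.04), Hnf4a with the hairpin (-0.73 to 0.48), in F4H medium in EPS shCtrl (-0.84 to 0.048) and in the change of the hairpin effect (-1.22 to 0.084), Gata6 in F4H medium in EPS shCtrl (-0.61 to 0.23), Foxa2 in the change of the oeYy1 effect (-6.48 to 2.27) and between lines in F4H medium (-4.42 to 0.43), and Pdgfra (-0.79 to 0.12) and Sox7 (-0.21 to 0.17) in EPS shYy1 against EPS. A fit without 1 library of a pair assumes that the lone library varies like the other groups. Outside EPS against ES the labels give 2 numbers a group, which share a number only: the correlations of deviations lay between -0.18 and 0.12, and beside Pdgfra in EPS against ES and Gata6 with oeYy1 the block changed no call. With TMM-scaled totals 8 of 70 mean levels moved by 1 SD or more. Depth limits Hnf4a everywhere and Foxa2 and Sox7 where they had few counts.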
